A study of Homo sapiens with 12 samples.

Results

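The transcripts described here are those of 9 genes of MHC class I antigen presentation: HLA-B, HLA-C, HLA-E, B2M, TAP1, TAP2, TAPBP, PSMB8 and PSMB9. They were chosen by their names, with earlier results of these data known, out of 62069 genes in the count table. Each had 1 Ensembl identifier. The RNA-seq libraries came from passage 13 of IMR90 ER:RAS, a human lung fibroblast line with RAS fused to the estrogen receptor. In these cells 4-hydroxytamoxifen (4OHT) switches RAS on and brings about oncogene-induced senescence (OIS). The labels give 4 groups of 3 libraries: cells without induction (vector), cells induced with 100 nM 4OHT (vector/4OHT), and induced cells that also expressed 1 of 2 shRNAs against XPO7, a nuclear transport receptor (shXPO7_3/4OHT and shXPO7_5/4OHT). The labels give day 5 for every library, the non-induced ones included, and 7 days of growth with a change of medium on day 4. The name vector comes from the study, and its shXPO7_X5 was taken to be the shXPO7_5 of the labels. All groups are 1 fibroblast line with the ER:RAS construct, the shRNA groups are compared with vector and not with another shRNA, and no knockdown group without 4OHT is among the samples.

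MHC class I molecules show fragments of the cell's own proteins to cytotoxic T cells. The proteasome cuts proteins into peptides, and in its immunoproteasome form the catalytic subunits PSMB8, PSMB9 and PSMB10 take the places of PSMB5, PSMB6 and PSMB7. The transporter made of TAP1 and TAP2 carries the peptides into the endoplasmic reticulum, where tapasin (TAPBP) helps to load them onto a heavy chain (HLA-B, HLA-C or HLA-E) paired with beta-2-microglobulin (B2M). Interferons are the classical inducers of the whole set, acting among others through IRF1 and the class I transactivator NLRC5, and NF-kB also acts on several of the promoters. In senescent fibroblasts the pathway is of interest because immune cells can recognise and remove such cells.

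The promoters of 4 members are shown as background to the values that follow. TAP1 and PSMB9 lie back to back on chromosome 6, with 487 bases between their RefSeq start sites on opposite strands, and moved in opposite directions in OIS. HLA-B and B2M stand for the chains of the class I molecule. The sequences are from RefSeq on GRCh38.p14, each read 5′ to 3′ on the strand of its gene. Capitals mark matches to the interferon-stimulated response element (ISRE, GAAANNGAAA) or to the NF-kB site, on either strand.
TAP1, chr6:32853745-32853844, minus strand: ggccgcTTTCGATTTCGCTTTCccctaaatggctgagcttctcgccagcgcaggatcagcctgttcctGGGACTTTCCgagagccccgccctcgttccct
PSMB9, chr6:32854027-32854156, plus strand: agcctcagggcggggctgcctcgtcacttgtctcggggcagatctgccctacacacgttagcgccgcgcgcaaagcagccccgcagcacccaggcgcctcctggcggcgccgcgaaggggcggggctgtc
HLA-B, chr6:31357225-31357364, minus strand: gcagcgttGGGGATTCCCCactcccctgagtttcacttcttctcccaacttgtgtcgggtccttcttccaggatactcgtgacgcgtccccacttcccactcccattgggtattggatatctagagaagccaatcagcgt
B2M, chr15:44711367-44711476, plus strand: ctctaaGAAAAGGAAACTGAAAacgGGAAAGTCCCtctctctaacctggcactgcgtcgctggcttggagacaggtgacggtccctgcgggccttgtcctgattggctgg
The TAP1 promoter shown holds a run of 2 overlapping ISRE matches followed by an NF-kB match. The same elements stand close together in B2M. Another RefSeq promoter of TAP1, not shown, holds neither motif in the 250 bases before its start site. HLA-B holds overlapping NF-kB matches, and PSMB9 holds neither motif in the 250 bases before its start site. The TAP1 ISRE run comes as near as 354 bases before the PSMB9 start site, outside that window. RefSeq promoters were matched for 8 of the 9 members. Within 250 bases before a start site, the ISRE was found in 4 of these 8 genes (TAP1, TAP2, TAPBP and B2M). That is 4 of their 10 promoters, against 3.02% of 35116 promoters. The NF-kB site was found in 5 of the 8 (HLA-B, HLA-C, TAP1, TAPBP and B2M), or 5 of the 10 promoters, against 5.21% of promoters. Only these forms of the motifs were searched, so a promoter without a match, HLA-B for the ISRE included, may hold a variant element. A match of letters is a description and does not show that a factor was bound.

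Library totals ran from 28534141 to 60397769 counts, and 15284 genes, all 9 members among them, passed the filter on low counts. Levels are given as CPM, counts scaled to the size of the library, after TMM scaling, with the libraries of each group in the order T, A and B, or T, A and C for vector. The summed CPM of 8 fibroblast markers ran from 24015.9 to 27879.9 in vector and from 16695.8 to 18153.7 in vector/4OHT. Single fibroblast markers in vector/4OHT stood at 9.69% (DCN) to 90.2% (VIM) of their vector level. The 7 leukocyte markers summed to no more than 0.198 CPM in any library, with 3 or 4 of the 7 at 0 throughout a group. Over all libraries, 4 epithelial markers summed to 37.8 to 56.6 CPM and 4 endothelial markers to 1.90 to 5.27 CPM. The part of the change in fibroblast markers in the results on the 9 genes was not tested. XPO7 was at 20.3% of its vector/4OHT level in shXPO7_3/4OHT and at 38.2% in shXPO7_5/4OHT. Libraries also differed in how a gene's level relates to the GC content of its transcript. Against the mean of vector/4OHT, the Spearman correlation of log ratio and GC content over genes was highest in shXPO7_5/4OHT replicate B (0.77) and lowest in shXPO7_3/4OHT replicate A (−0.33), so the members' log2 fold changes are also given after a correction for GC content and transcript length (called the GC correction).

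Per kilobase of the longest transcript, the light chain B2M was the most abundant of the 9 in vector, at 324 ± 3.29 CPM per kb (SD, n = 3), followed by HLA-B at 124 ± 8.03. HLA-E at 63.6 ± 5.07 and HLA-C at 62.3 ± 3.53 did not differ beyond their spread on this scale. TAPBP followed at 37.8 ± 2.99, TAP1 at 13.2 ± 0.967, PSMB8 at 10.5 ± 0.679, TAP2 at 4.37 ± 0.55 and PSMB9 at 1.52 ± 0.0567 CPM per kb. PSMB9, a catalytic subunit, was thus the scarcest message of the set before induction. Part of this order depends on the length used. Over all exons of a gene together, HLA-E at 55.6 ± 4.43 CPM per kb (SD, n = 3) lay above HLA-C at 46.7 ± 2.65 by more than their spread, and PSMB8 at 8.34 ± 0.538 and TAP1 at 8.14 ± 0.595 did not differ beyond theirs.

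**Figure D1:**
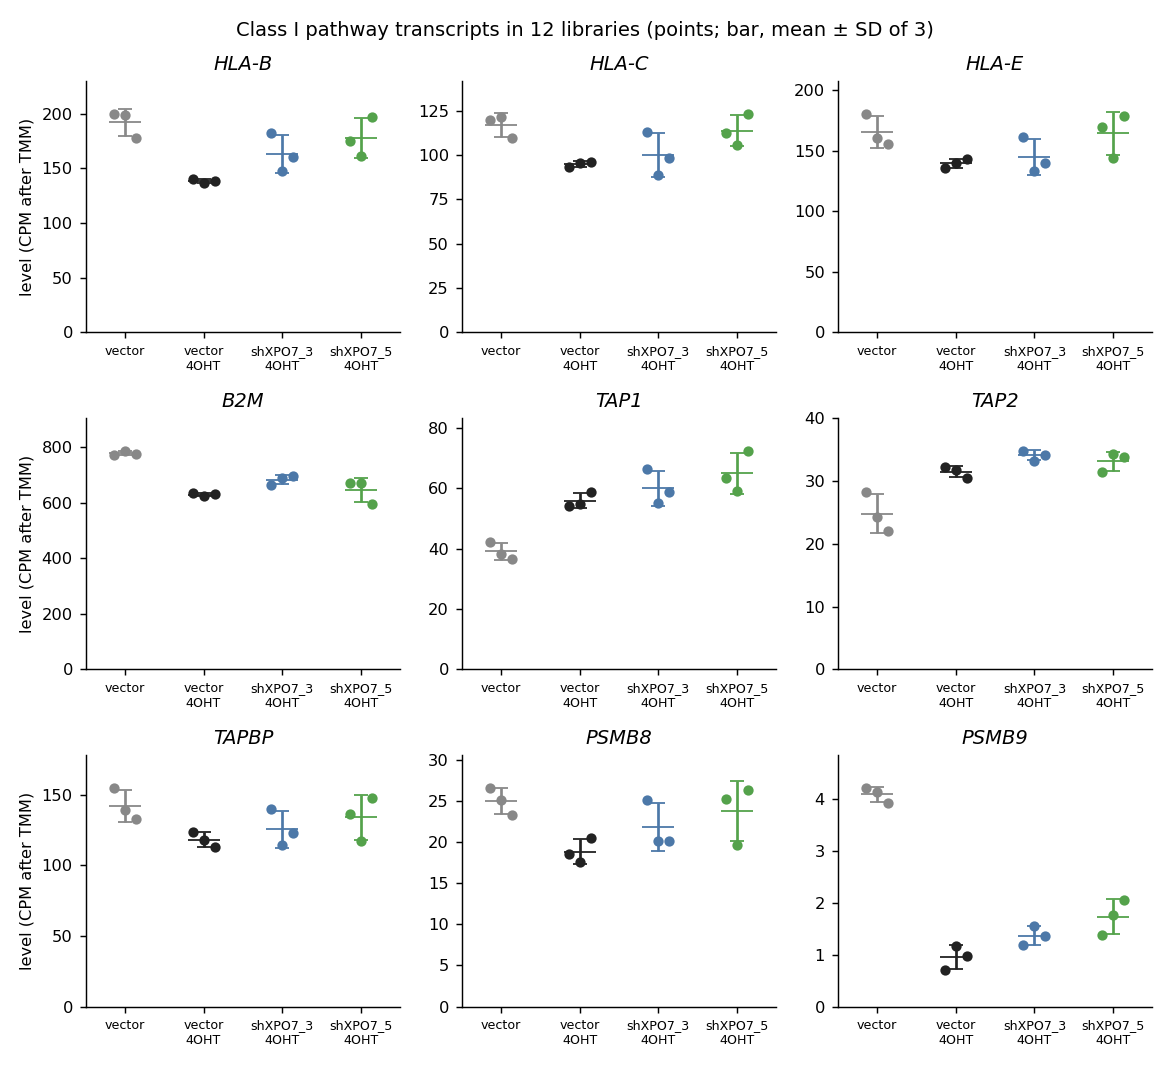
Level of each member (y axis, CPM after TMM scaling, from 0) in the 12 libraries, by group on the x axis, as points, with a bar for the mean ± SD of 3 libraries. The 3 vector/4OHT libraries lie below all vector libraries in 7 panels and above them in those of TAP1 and TAP2.

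To see what induction of RAS did to the pathway, vector/4OHT was compared with vector. All 9 members passed the test, against 50.9% of all genes tested, and their libraries did not overlap in any of the 9, against 63.2% of all genes. The pathway did not move as a block. The chains, tapasin and both immunoproteasome subunits fell (7 members, against 26.1% of genes called lower), and the transporter subunits TAP1 and TAP2 rose (2 members, against 24.8% called higher). The median log2 fold change of the 9 was −0.30, beside −0.0068 over all genes. With the GC correction it was −0.17, beside 0.032 over all genes. In these bulk libraries fewer cells that express a gene and less RNA per cell cannot be told apart.

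HLA-B, a classical heavy chain that presents peptides to cytotoxic T cells, stood at 200.04, 199 and 178 CPM in vector and at 140.2, 137 and 139 CPM in vector/4OHT. The induced libraries were all lower and lay close together. HLA-B fell by 0.47 on the log2 scale (SE 0.092, edgeR adjusted p = 0.000979), to 72.0% of its vector level. HLA-C, the other classical heavy chain of the set and also a ligand of receptors on natural killer cells, stood at 120.0, 122 and 109 CPM in vector and at 93.4, 95.6 and 96.4 CPM in vector/4OHT. Its change was smaller, a log2 fold change of −0.30 (SE 0.091, adjusted p = 0.0161). HLA-E, a non-classical heavy chain that displays leader peptides of other class I molecules to natural killer cells, went from 180.3, 161 and 155 CPM to 135, 139.5 and 143 CPM. Its change of −0.25 (SE 0.096, adjusted p = 0.0487) lay just inside the threshold. B2M, the light chain shared by all of them, had 771, 787 and 777 CPM in vector and 634, 625 and 631 CPM in vector/4OHT. It varied little within a group and fell by 0.31 on the log2 scale (SE 0.058, adjusted p = 0.00079). HLA genes are near-identical in part and highly variable between people, so their counts depend on how reads with several matches were treated, which is not given in the sources used here.

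TAP1 and TAP2, whose products pair to form the peptide transporter, were the members that rose. TAP1 had 42.3, 38.2 and 36.8 CPM in vector and 54.1, 55.0 and 58.8 CPM in vector/4OHT, a rise of 0.52 (SE 0.097, adjusted p = 0.000722), or 1.43-fold. TAP2 had 28.2, 24.3 and 21.99 CPM in vector and 32.2, 31.8 and 30.5 CPM in vector/4OHT. Vector replicate T came near the induced libraries without reaching them, and the log2 fold change was 0.34 (SE 0.087, adjusted p = 0.00573). TAPBP, which bridges the transporter and the heavy chain, moved the other way, from 155, 139 and 133 CPM to 124, 118 and 113 CPM. The log2 fold change of TAPBP was −0.27 (SE 0.10, adjusted p = 0.0429).

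PSMB9 had by far the largest change of the 9. Its level was 4.20, 4.13 and 3.91 CPM in vector and 0.711, 1.17 and 0.968 CPM in vector/4OHT, which rests on 136 to 170 counts per library in vector and 26 to 48 in vector/4OHT. All induced libraries were far below all non-induced ones. PSMB9 fell by 2.11 on the log2 scale (SE 0.19, 95% confidence interval −2.52 to −1.71, adjusted p = 1.32e-06), to 23.3% of its vector level. PSMB8, the other immunoproteasome subunit of the set, had 26.6, 25.1 and 23.4 CPM in vector and 18.5, 17.5 and 20.5 CPM in vector/4OHT. The change of PSMB8 was −0.41 (SE 0.12, adjusted p = 0.0169).

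How firm these calls were differed between members. HLA-B, B2M, TAP1 and PSMB9 passed in all 15 alternative analyses, HLA-C and TAP2 in 14, PSMB8 in 12, TAPBP in 8 and HLA-E in 7, with the same sign in each. Without vector/4OHT replicate T, 5 of the 9 passed, against 43.9% of all genes, and HLA-C, HLA-E, TAPBP and PSMB8 did not. With the GC correction, 8 of the 9 passed, against 63.9% of all genes, and the exception was TAPBP at −0.11 (adjusted p = 0.0518). The corrected log2 fold changes of the heavy chains were nearer 0, at −0.37 for HLA-B, −0.17 for HLA-C and −0.11 for HLA-E, as was PSMB8 at −0.29. B2M was at −0.37, TAP1 at 0.68 and TAP2 at 0.41, farther from 0 than without the correction, and PSMB9 was at −2.07. Upper-quartile scaling moved the median of all genes in this comparison to −0.10 and the share of called genes that were higher from 48.8% to 38.3%, and TAP2 was then at 0.24 (adjusted p = 0.0627).

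**Figure D2:**
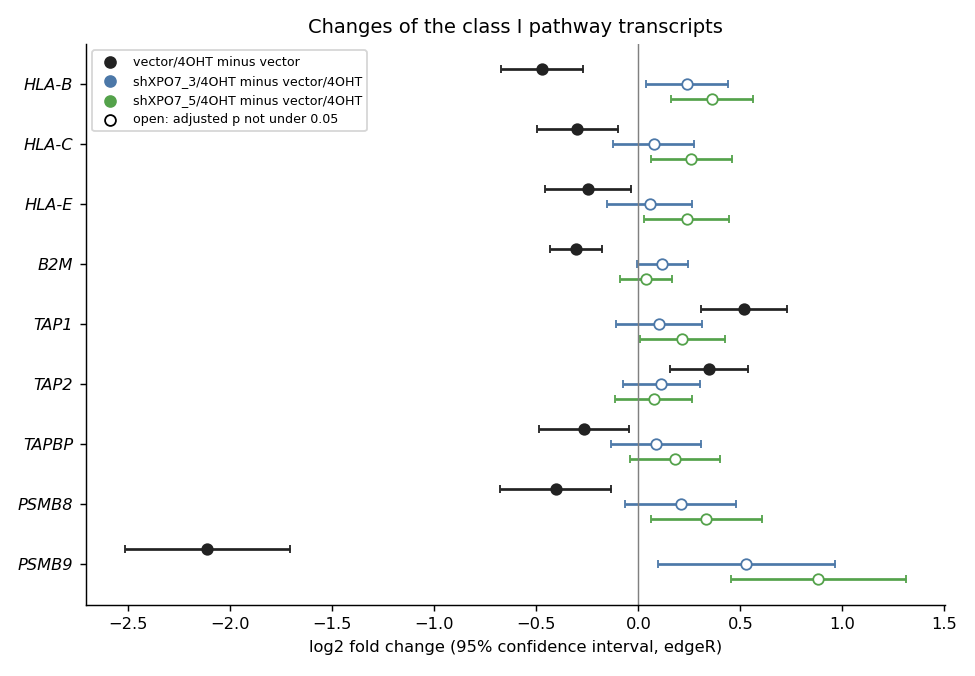
Log2 fold change of each member (x axis, with the 95% confidence interval from edgeR) in vector/4OHT against vector (black) and in each knockdown against vector/4OHT (blue and green), with filled points for an adjusted p under 0.05. All black points are filled and lie on both sides of 0, with PSMB9 farthest out at −2.11, and all blue and green points are open and lie above 0.

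TAP2, PSMB8, TAP1 and PSMB9 are neighbours within the MHC region of chromosome 6. On GRCh38 they span 32821833 to 32838780 (TAP2), 32840717 to 32844703 (PSMB8), 32845209 to 32853978 (TAP1) and 32844136 to 32859585 (PSMB9), and only PSMB9 is on the plus strand. These are GENCODE spans, by which TAP1 lies within PSMB9, whereas the RefSeq start sites of the pair lie back to back. In OIS the transporter subunits rose and the proteasome subunits between and beside them fell. Within a library, TAP1 had 10.1, 9.26 and 9.41 times the CPM of PSMB9 in vector and 76.1, 47.0 and 60.8 times in vector/4OHT. The mean of this ratio was 9.58 in vector and 61.3 in vector/4OHT, a pair of genes that was set side by side after its values were seen and is given without a test. PSMB9 shares 139 exonic bases with PSMB8 on the opposite strand and 174 with the non-coding gene PSMB8-AS1 on its own strand, which had 355 counts over all libraries beside 900 for PSMB9. Whether strand was used in counting is not given in the sources used here, and the part of this overlap in the change of PSMB9 was not tested.

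**Figure D3:**
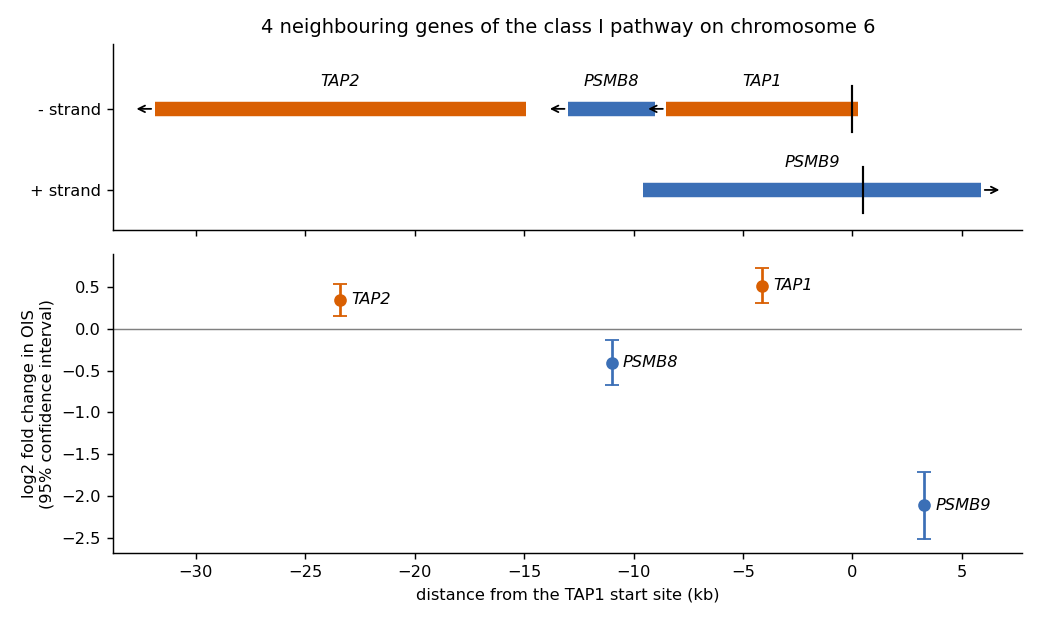
Upper panel, the 4 neighbouring genes drawn to scale by strand (y axis) against the distance from the TAP1 start site in kb (x axis, GENCODE gene spans, arrows in the direction of transcription, black ticks at the RefSeq start sites of TAP1 and PSMB9). Lower panel, log2 fold change in OIS with its 95% confidence interval, in which TAP1 and TAP2 (orange) lie above 0 and PSMB8 and PSMB9 (blue) below, PSMB9 at −2.11.

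Because an immunoproteasome subunit replaces a constitutive one, each was also set against its counterpart within the same library, a ratio that does not depend on library scaling. PSMB8 stood at 0.153, 0.157 and 0.154 of the CPM of PSMB5 in vector and at 0.0941, 0.0921 and 0.0999 in vector/4OHT. The ratio was lower in every induced library, by 0.70 on average on the log2 scale (log2 difference −0.70, exact two-sided permutation p = 0.1, the smallest that 3 libraries against 3 allow). PSMB9 stood at 0.0363, 0.0383 and 0.0387 of PSMB6 in vector and at 0.0071, 0.0106 and 0.00852 in vector/4OHT. Here too the groups did not overlap, with a log2 difference of −2.13 (exact permutation p = 0.1). PSMB10, which is not one of the 9, stood at 0.0270, 0.0292 and 0.0197 of PSMB7 in vector and at 0.0179, 0.0169 and 0.0210 in vector/4OHT. These groups overlapped, and the log2 difference was −0.43 (exact permutation p = 0.2). None of the constitutive partners was called lower: PSMB5 had a log2 fold change of 0.29 (adjusted p = 0.0257), PSMB7 of 0.25 (adjusted p = 0.0213) and PSMB6 of −0.0030 (adjusted p = 0.982). The calls of PSMB5 and PSMB7 were lost with the replicate letter as a block (0.22 and 0.19, adjusted p = 0.0532 and 0.0675) and with upper-quartile scaling (0.19 and 0.15, adjusted p = 0.207 and 0.249). Both were also lost without vector replicate A (adjusted p = 0.0719 and 0.0625), vector replicate C (0.0848 and 0.0801) or vector/4OHT replicate B (0.0881 and 0.0704). Without vector/4OHT replicate T the call of PSMB5 was lost too (adjusted p = 0.0563).

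**Figure D4:**
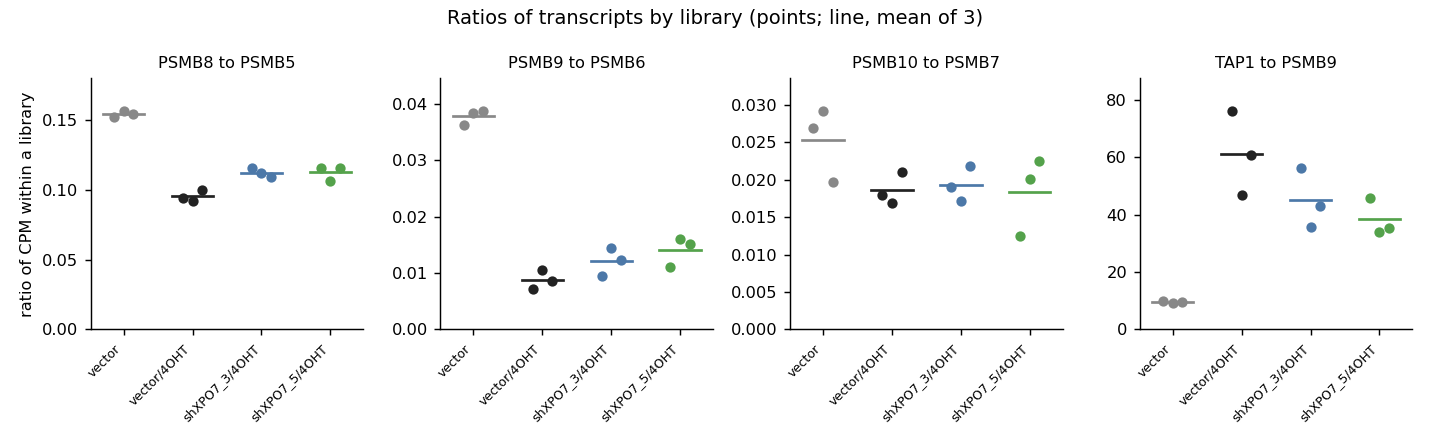
Ratio of CPM within a library (y axis, linear, from 0) for PSMB8 to PSMB5, PSMB9 to PSMB6, PSMB10 to PSMB7 and TAP1 to PSMB9, by group on the x axis, with a point per library and a line at the mean of 3. The first 2 ratios are lower in all vector/4OHT libraries than in all vector libraries, the third overlaps, and TAP1 to PSMB9 is higher, at 47.0 to 76.1 against 9.26 to 10.1.

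Of 19 other class I pathway genes measured, 4 rose, 6 fell and 9 did not pass, with a median log2 fold change of −0.19. The share called, 52.6%, was close to the 50.9% of all genes. ERAP1, the aminopeptidase that trims peptides in the endoplasmic reticulum, fell by 0.92 (adjusted p = 2.12e-07) and PSME1, a subunit of the interferon-inducible proteasome activator, fell by 0.63 (adjusted p = 6.02e-05). TAPBPL, a tapasin-related peptide editor, fell by 0.54 (adjusted p = 0.0108). LNPEP, an aminopeptidase of the cross-presentation route, rose by 0.57 (adjusted p = 0.014). Among the regulators, NLRC5 stood at 21.0, 17.9 and 17.4 CPM in vector and at 15.5, 15.3 and 14.2 CPM in vector/4OHT. Its log2 fold change was −0.32 (adjusted p = 0.0338), or −0.17 with the GC correction (adjusted p = 0.0497). The call was lost without vector replicate T (−0.23, adjusted p = 0.134) and with no filter beyond 1 count (−0.31, adjusted p = 0.0529). It was also lost without vector/4OHT replicate T, A or B (−0.34, −0.33 and −0.29, adjusted p = 0.0609, 0.0713 and 0.0925). IRF1 moved the other way, from 28.8, 28.2 and 24.4 CPM to 35.1, 35.4 and 36.2 CPM, a log2 fold change of 0.39 (adjusted p = 0.00453), or 0.29 with upper-quartile scaling (adjusted p = 0.0527).

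In the constitutive 20S proteasome 13 of 14 genes were tested, of which 5 rose, 1 fell and 7 did not pass. PSMA5, PSMA3 and PSMA4, structural subunits of the outer rings, rose by 0.47, 0.36 and 0.31, and PSMB2, of an inner ring, fell by 0.31 on the log2 scale. PSMA5 lost its call with the GC correction (0.35, adjusted p = 0.141) and PSMA3 with upper-quartile scaling (0.26, adjusted p = 0.0546) and without any of 5 libraries. Of 11 MHC class II genes, whose products present peptides from outside the cell, 4 passed the filter on low counts. Among these HLA-DMA, which loads class II molecules, fell by 1.99 (adjusted p = 4.65e-06) and CD74, the invariant chain, fell by 1.55 (adjusted p = 0.00633), both low already in vector, at 4.17 ± 0.618 and 0.778 ± 0.129 CPM (SD, n = 3), and 2 did not pass the test. CD74 rests on 7 to 32 counts per library, and its log2 fold change was −2.22 without vector/4OHT replicate A and −1.17 without vector/4OHT replicate B. Of 18 interferon-response genes 16 were tested, and 1 rose, 7 fell and 8 did not pass. IFIT2, GBP2 and IFIT1, which restrict viral RNA or intracellular microbes, fell by 2.03, 1.85 and 1.78, and IFIH1, a sensor of double-stranded RNA, fell by 0.93 (adjusted p = 0.0221). IFIH1 lost its call with the replicate letter as a block (−0.42, adjusted p = 0.114), without vector replicate C (−0.50, adjusted p = 0.121) and without vector/4OHT replicate B (−0.81, adjusted p = 0.0907). IFIT1 was at −1.17 with the block and ran from −2.06 to −1.22 with a library left out. In vector, replicate C stood apart from T and A for IFIT1 (15.0 beside 5.04 and 7.46 CPM) and IFIH1 (6.06 beside 2.75 and 3.16 CPM). For GBP2 replicate C was the lowest (6.80 beside 7.76 and 7.75 CPM). The shares called were 46.2% for the 20S proteasome, 50.0% for the 4 class II genes and 50.0% for the interferon-response genes, beside 50.9% of all genes. The medians were 0.13 for the 20S proteasome, −1.14 for the 4 class II genes and −0.47 for the interferon-response genes.

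**Figure D5:**
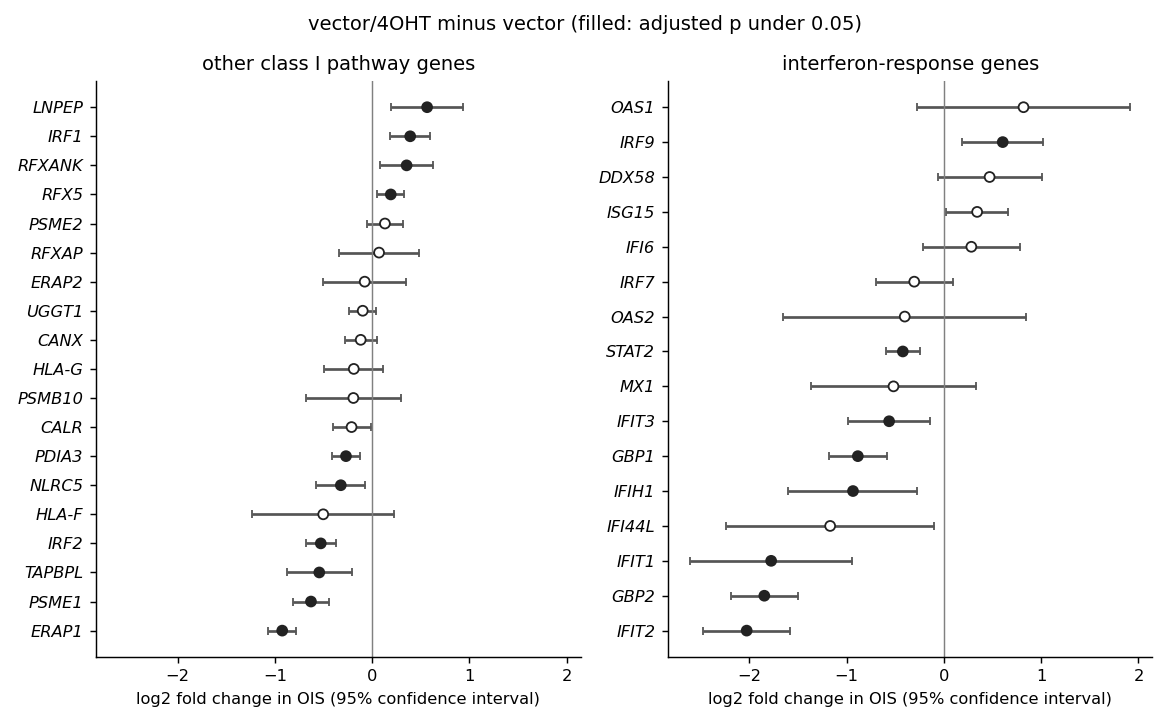
Log2 fold change in vector/4OHT against vector (x axis, with the 95% confidence interval) of the other class I pathway genes (left) and the interferon-response genes (right), 1 gene per row, with filled points for an adjusted p under 0.05. The left panel holds filled points on both sides of 0, from ERAP1 at −0.92 to LNPEP at 0.57, and in the right panel IRF9 is the filled point above 0.

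Each knockdown was then compared with vector/4OHT, to see what depletion of XPO7 did to the pathway in induced cells. The comparisons share the 3 vector/4OHT libraries, so their values are given side by side and no agreement between them is counted. These libraries are also the induced side of OIS, so an error in them would shift OIS and both knockdown changes in opposite directions. In neither did a member pass the test, against 0.124% of all genes called with shXPO7_3 and 0.589% with shXPO7_5. All 9 log2 fold changes were above 0 in both, with medians of 0.11 and 0.24 beside medians of −0.0031 and 0.0058 over all genes. At an unadjusted p under 0.05, 2 members were higher with shXPO7_3, against 3.54% of all genes, and 6 with shXPO7_5, against 12.3%. DESeq2 called no member with shXPO7_3 and 2, HLA-B and PSMB9, with shXPO7_5, against 2.79% of all genes. Libraries did not overlap with those of vector/4OHT for 4 members with shXPO7_3, against 14.6% of all genes, and for 5 with shXPO7_5, against 26.8%.

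PSMB9, at 0.711, 1.17 and 0.968 CPM in vector/4OHT, stood at 1.18, 1.54 and 1.37 CPM in shXPO7_3/4OHT and at 1.38, 1.75 and 2.05 CPM in shXPO7_5/4OHT. All knockdown libraries lay above all vector/4OHT libraries, shXPO7_3/4OHT replicate T by little, and below all vector libraries. The log2 fold changes were 0.53 (SE 0.20, adjusted p = 0.583) and 0.88 (SE 0.20, 95% confidence interval 0.45 to 1.31, adjusted p = 0.0681). HLA-B had 182, 148 and 160.0 CPM with shXPO7_3 and 175, 161 and 197 CPM with shXPO7_5, all above the 137 to 140.2 CPM of vector/4OHT. Its log2 fold changes were 0.24 (SE 0.092, adjusted p = 0.607) and 0.36 (SE 0.092, adjusted p = 0.0948). These are the members that came nearest to the threshold.

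For the other chains the values depended on the GC correction. HLA-C had 113, 88.6 and 98.6 CPM with shXPO7_3 and 113, 106 and 123 CPM with shXPO7_5, with log2 fold changes of 0.07 (adjusted p = 0.999) and 0.26 (adjusted p = 0.179), which the GC correction brought to 0.047 and 0.046. HLA-E had 161, 133 and 139.8 CPM and 169.6, 144 and 179 CPM, with log2 fold changes of 0.06 (adjusted p = 0.999) and 0.24 (adjusted p = 0.21), or 0.035 and 0.10 with the GC correction. For both heavy chains the shXPO7_3/4OHT libraries overlapped with those of vector/4OHT and the shXPO7_5/4OHT libraries did not. B2M had 664, 690.1 and 695 CPM and 671, 672 and 596 CPM, so that its groups were apart with shXPO7_3 (log2 fold change 0.12, adjusted p = 0.828) and overlapped with shXPO7_5 (0.04, adjusted p = 0.679). With the GC correction B2M went the other way from the heavy chains, to 0.16 (adjusted p = 0.492) and 0.29 (adjusted p = 0.107), so that with shXPO7_5 it then lay above HLA-B at 0.18.

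TAP1, which induction had raised, had 66.3, 55.1 and 58.7 CPM with shXPO7_3 and 63.4, 59.2 and 72.5 CPM with shXPO7_5. Its log2 fold changes were 0.10 (adjusted p = 0.999) and 0.22 (adjusted p = 0.225), in the direction of the change with induction, and 0.080 and 0.049 with the GC correction. TAP2 had 34.8, 33.2 and 34.2 CPM and 31.5, 34.2 and 33.9 CPM, at log2 fold changes of 0.11 and 0.07, and TAPBP, at 139.7, 114 and 123 CPM and 137, 117 and 148 CPM, stood at 0.09 and 0.18. The GC correction put TAP2 at 0.11 and 0.058 and TAPBP at 0.066 and 0.011. PSMB8 had 25.2, 20.1 and 20.1 CPM and 25.3, 19.7 and 26.4 CPM, at 0.21 (adjusted p = 0.981) and 0.33 (adjusted p = 0.194), or 0.18 and 0.21 with the GC correction. Vector/4OHT libraries of PSMB8 reached 20.5 CPM, so both knockdowns overlapped with them.

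The ratio of PSMB8 to PSMB5 was 0.115, 0.112 and 0.109 with shXPO7_3 and 0.116, 0.107 and 0.116 with shXPO7_5, above every vector/4OHT library and below every vector library. The log2 difference from vector/4OHT was 0.24 with either shRNA (exact two-sided permutation p = 0.1 each, the smallest possible). The ratio of PSMB9 to PSMB6 was 0.0095, 0.0145 and 0.0122 with shXPO7_3, overlapping with vector/4OHT (log2 difference 0.46, exact permutation p = 0.2). With shXPO7_5 it was 0.0111, 0.0161 and 0.0152, above all vector/4OHT libraries (log2 difference 0.69, exact permutation p = 0.1). PSMB10 to PSMB7 differed by 0.056 and −0.057 (exact permutation p = 0.7 and 0.9).

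The values also differed by single library and by GC content, and the part of GC content in them was not tested. In HLA-B, HLA-C, HLA-E, TAP1, TAPBP and PSMB8, shXPO7_3/4OHT replicate T was the highest of its group and shXPO7_5/4OHT replicate A the lowest of its own. The correlation of log ratio with GC content was 0.57 in the former, against −0.33 and −0.25 in the other shXPO7_3/4OHT libraries, and 0.11 in the latter, against 0.60 and 0.77. The transcripts of these 6 members have 53.8% to 62.7% GC. B2M, at 40.6% GC, was lowest in shXPO7_5/4OHT replicate B. TAP2, at 49.1% GC, was highest in shXPO7_3/4OHT replicate T too, but also in shXPO7_5/4OHT replicate A. PSMB9, at 46.9% GC, was lowest in replicate T of both knockdown groups. Without shXPO7_3/4OHT replicate T, HLA-C, HLA-E and TAPBP were just below 0 in that comparison (−0.028, −0.035 and −0.0034). Without shXPO7_5/4OHT replicate A, HLA-B, HLA-C, HLA-E, PSMB8 and PSMB9 passed the test, 5 of the 9, against 23.0% of all genes (3634 calls). With the GC correction all 9 members still lay above 0 in both comparisons, with medians of 0.11 and 0.10. HLA-B then passed with shXPO7_3 (0.21, adjusted p = 0.0304, with 2.22% of all genes called) and HLA-B and PSMB9 passed with shXPO7_5 (0.18 and 0.91, adjusted p = 0.0482 and 0.0277, with 3.08% of all genes called).

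No gene of the other 4 lists passed in either knockdown. IRF1 stood at 49.4, 42.4 and 43.8 CPM with shXPO7_3 and at 51.3, 42.5 and 50.4 CPM with shXPO7_5, above all vector/4OHT libraries in both, with log2 fold changes of 0.35 (adjusted p = 0.293) and 0.44 (adjusted p = 0.0616). PSME1 had 51.0, 45.4 and 45.5 CPM and 55.8, 47.3 and 53.1 CPM, beside 41.5, 40.5 and 40.8 CPM in vector/4OHT, with log2 fold changes of 0.21 (adjusted p = 0.668) and 0.35 (adjusted p = 0.0877). After the GC correction IRF1 and PSME1 passed in both comparisons, and by DESeq2 they passed with shXPO7_5. GBP2, a guanylate-binding protein induced by interferon, went the other way, at −0.54 (adjusted p = 0.443) and −0.55 (adjusted p = 0.156). Its libraries, at 1.37, 1.45 and 1.43 CPM and at 1.21, 1.90 and 1.12 CPM, lay below the 1.91 to 2.20 CPM of vector/4OHT. Without shXPO7_5/4OHT replicate A, GBP2 passed as lower with shXPO7_5 (−0.83, adjusted p = 0.0203). IRF1, PSME1 and NLRC5 then passed as higher (0.52, 0.41 and 0.36), with 23.0% of all genes called. NLRC5 was at 0.09 and 0.26.

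The shRNAs were also compared directly. No member passed the test, against 0.0131% of all genes, none had an unadjusted p under 0.05, against 11.9% of all genes, none passed by DESeq2, and none had libraries that did not overlap, against 9.71% of all genes. With shXPO7_5, 7 members were higher and 2, B2M and TAP2, lower than with shXPO7_3, with a median log2 difference of 0.12 that was −0.00065 after the GC correction. PSMB9 differed most, by 0.35 (95% confidence interval −0.055 to 0.76, adjusted p = 0.388). For HLA-B the interval ran from −0.077 to 0.32, so a difference between the shRNAs anywhere in that range remains compatible with the data.

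The genes outside the lists whose levels most resembled the mean standardised level of the 9 members over the 12 libraries were LOXL2 (Pearson r = 0.987), ARHGEF17 (0.986), TNS2 (0.982), PELP1 (0.975) and DUSP7 (0.972). The points share libraries, depth and GC trend, and the values are a description. LOXL2, a lysyl oxidase that cross-links collagen, averaged 730 CPM in vector, 593 in vector/4OHT, 642 in shXPO7_3/4OHT and 717 in shXPO7_5/4OHT. The mean standardised level of the members was highest in vector replicate T, at 0.89, followed by shXPO7_5/4OHT replicate B, at 0.82, and was lowest in the vector/4OHT libraries, from −0.78 to −0.66.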

How the data were processed

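The data are RNA-seq counts of 12 libraries of IMR90 ER:RAS cells, 3 per group, grouped by the sample labels. The authors deposited raw counts per gene, not normalized, from mRNA libraries of a stranded kit. Per the labels, reads went through CASAVA (1.8.4), TopHat2 (2.0.11) and featureCounts (1.18.0), with hg19 and GRCh37 named as builds. How genes were annotated, whether strand was used and what was done with multiply matching reads is not stated in the labels or the methods. The 92 ERCC spike-in entries, all at 0, were dropped. A symbol was found for 50409 genes, holding 99.49% of counts. Depth was 28534141 to 60397769 counts, and counting error is smallest for B2M and largest for PSMB9. The labels do not name separate cultures, so the spread behind each p-value may be technical. Pairs of libraries in a group differed beyond sampling noise, with a chi-square of 4.49 to 59.3 per gene.

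The main analysis was edgeR 4.0.16 in R 4.3.3 (filterByExpr, TMM factors, quasi-likelihood test) on the 12 libraries together, with the Benjamini-Hochberg adjustment over 15284 genes and a threshold of 0.05. Ratios were compared by an exact two-sided permutation test over libraries. The alternatives tried were other scaling (RLE, upper-quartile), other filters (any count, or 1 CPM in 6 libraries), identifiers of a symbol added up, only the compared groups in the fit, each library left out, a block for the replicate letter, DESeq2 1.42.0, a further threshold of 1 on the log2 fold change, a pseudocount of 1 CPM for ratios, and a GC correction. For the last, a spline (5 degrees of freedom) of each library's log ratios on GC content and on transcript length entered the model as an offset, and 97.3% of tested genes had both values in GENCODE release 29. That annotation and RefSeq are on GRCh38, not on the GRCh37 of the counts, and were joined by identifier or symbol. Scripts were tested on simulated data.

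The 9 members and all lists were chosen with earlier results of these data known. Genes named are the members, XPO7, up to 4 called genes per list with the largest change in OIS, PSMB5, PSMB6, PSMB7, PSMB10, NLRC5 and IRF1, and the 5 genes most like the members. IRF9, PSMB8-AS1, AL669918.1, AL671883.2, DCN and VIM, and PSME1 and GBP2 in the knockdowns, were named after their values were seen. PSMB3 had no matching row, and 1 gene of the lists is not reported here.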

Additional observations from a re-analysis of the deposited data

Results flagged for a closer look

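XPO7, the targeted gene, differed between the knockdowns, by a direct test of the difference between the groups. Its level was 26.4, 28.7 and 27.9 CPM in shXPO7_3/4OHT and 50.8, 53.999 and 51.8 CPM in shXPO7_5/4OHT, beside 127, 144 and 139 CPM in vector/4OHT. It was 0.92 higher on the log2 scale with shXPO7_5 (SE 0.072, edgeR adjusted p = 0.000387), in 3 of 3 libraries. No member of the class I pathway passed the same test.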

How the results depend on the processing

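Members called in OIS numbered 9 and, with each library left out in turn, 5 to 9, the 5 without vector/4OHT replicate T. At a further threshold of 1 on the log2 fold change there was 1, PSMB9. With shXPO7_3 none was called and with GC content and length corrected 1. With shXPO7_5 none was called, 1 with no filter beyond 1 count, 2 with the GC correction, 2 with DESeq2, and 0 to 5 with a library left out, the 5 without shXPO7_5/4OHT replicate A. Between the shRNAs none was called in any alternative.

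Among all genes, OIS gave 7777 calls and 2573 at the threshold of 1 on the log2 fold change. For shXPO7_3, 19 calls became 8 with upper-quartile factors, 30 with no filter, 339 with the GC correction, 2 in a fit to only the 2 groups, 88 with DESeq2, 2 at the threshold of 1 on the log2 fold change and 1 with any library left out. For shXPO7_5, 90 calls became 217 with no filter, 149 with the replicate block, 470 with the GC correction, 12 in a fit to only the 2 groups, 426 with DESeq2, 8 at the threshold of 1 on the log2 fold change and 2 to 3634 with a library left out, 3634 without shXPO7_5/4OHT replicate A. Between the shRNAs, 2 calls became 20 with no filter, 44 with the GC correction, 0 in a fit to only the 2 groups, 27 with DESeq2, 0 at the threshold of 1 on the log2 fold change and 1 to 4 with a library left out.

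Whether the replicate letters pair the samples was not settled, and the main analysis did not pair them. Correlations of deviations from the group means of same-letter libraries ran from −0.23 to 0.37. They were under 0.1 for some letter in each knockdown comparison. The libraries also differed in their GC trend, so these correlations cannot decide the pairing. OIS has 2 shared letters, at 0.20 and 0.21. With the letter as a block no member changed side of the threshold. In OIS PSMB5, PSMB7 and IFIH1 lost their call and PSMB10 gained one, and IRF1 gained one with shXPO7_5.

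The PSMB8 to PSMB5 difference in OIS was −0.61 with the GC correction. With a pseudocount of 1 CPM, PSMB9 to PSMB6 differed by −1.39 in OIS and 0.30 with shXPO7_5. PSMB10 to PSMB7 ran from −0.035 to 0.15 with shXPO7_3 and from −0.23 to 0.20 with shXPO7_5 when a library was left out. Values near 0 changed sign. In OIS PSMB6 was at 0.0080 with no filter, 0.031 with the GC correction and −0.053 to 0.054 with a library left out. With shXPO7_3 and a library left out, HLA-C ran from −0.028 to 0.15, HLA-E from −0.035 to 0.11, TAPBP from −0.0034 to 0.15 and NLRC5 from −0.0016 to 0.15. Between the shRNAs the GC correction gave −0.029 for HLA-B, −0.00065 for HLA-C, 0.13 for B2M, −0.031 for TAP1 and −0.054 for TAPBP, and TAP2 was at 0.0082 with upper-quartile factors and from −0.059 to 5.8e-05 with a library left out. The cause was not tested.

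Depth limits PSMB9 most, at 26 to 81 counts per library in the induced groups. Every test has 3 libraries per group, so a member that missed the threshold is not shown to be unchanged.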
